A study of Mus musculus with 18 samples.

Results

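The transcripts of lactate dehydrogenase and of the genes that bring pyruvate into the mitochondrion were followed in mouse oocytes that lack VPS34 and in their floxed controls. The set has 10 genes, taken by name from the 55291 gene rows of the count table: the lactate dehydrogenase subunits Ldha, Ldhb and Ldhc, the lactate and pyruvate transporter Slc16a1, the mitochondrial pyruvate carrier subunits Mpc1 and Mpc2, the pyruvate dehydrogenase subunits Pdha1 and Pdhb, and the pyruvate dehydrogenase kinases Pdk1 and Pdk3. All 10 names were found. Ldha was also picked because it was low in knockout oocytes at the germinal vesicle (GV) stage, so its values in any comparison that uses GV libraries are given as a description with no test. Its comparison at metaphase II (MII) did not enter that choice and was tested, and the other 9 genes were tested throughout.

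The series asks what oocytes need VPS34 for; this lipid kinase, the product of Pik3c3, makes phosphatidylinositol 3-phosphate for endocytic traffic and autophagy. The knockout animals, called ZcKO, are Vps34 floxed/floxed, Zp3-Cre positive, and the controls are Vps34 floxed/floxed, so both arms carry the floxed alleles on both chromosomes. Zp3-Cre acts in growing oocytes and not in the cells around them. All females were 5 weeks old. MII oocytes, which have been ovulated and wait for fertilization, were taken at 14 h from the hCG injection, and GV oocytes, fully grown and still in prophase, at 46 h from the PMSG injection. Each library pooled 5 oocytes, and each of the 4 groups (ZcKO MII, control MII, ZcKO GV, control GV) had 3 libraries. The table marks its arms with the letters T and C, read here as ZcKO and control although the sample titles use neither letter, and every genotype direction rests on that reading. The 2-cell embryos of the series were not analysed here.

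Lactate dehydrogenase interconverts lactate and pyruvate, and its tetramers are built from A (muscle-type), B (heart-type) and C (testis-type) subunits. Mouse oocytes take up pyruvate, much of it supplied by the surrounding cumulus cells, and burn it in mitochondria because they use glucose poorly on their own. Pyruvate crosses the plasma membrane through monocarboxylate transporters such as MCT1, the product of Slc16a1, and the inner mitochondrial membrane through the MPC1-MPC2 carrier, and the pyruvate dehydrogenase complex then turns it into acetyl-CoA. Kinases of the PDK family phosphorylate that complex and switch it off. Fully grown oocytes make almost no new RNA, and stored messages are adenylated, deadenylated or degraded as the oocyte matures, which matters here because Smart-seq2 primes on the poly(A) tail: the amount of a transcript and the length of its tail cannot be told apart.

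Libraries held 2609783 to 4696626 gene counts, and values are given as CPM, each count divided by the library's gene counts and scaled to 1000000. The ratio of gene counts to ERCC spike-in counts was 1.92 ± 0.363 in ZcKO MII, 2.19 ± 0.302 in control MII, 8.94 ± 3.65 in ZcKO GV and 6.68 ± 2.19 in control GV libraries (SD, n = 3 each). Pik3c3 itself had 1.96 ± 0.615 CPM in ZcKO GV and 30.01 ± 4.99 CPM in control GV oocytes, and 3.66 ± 1.52 CPM in ZcKO MII and 16.4 ± 5.44 CPM in control MII oocytes, without overlap at either stage; it passed the test at GV (adjusted p = 1.5e-04) and not at MII (adjusted p = 0.530). The 11 oocyte markers found under their listed names summed to between 17055 and 46679 CPM in the 12 libraries. Of 16 defining markers of cumulus and granulosa cells, 2 were at 0 in every ZcKO MII library (Fshr, Amh), 2 in control MII (Amh, Amhr2), 3 in ZcKO GV (Foxl2, Ptx3, Tnfaip6) and 2 in control GV (Ptx3, Tnfaip6). Their summed level was 106 to 438 CPM in ZcKO MII and 159 to 232 CPM in control MII libraries, and 65.0 to 86.6 CPM in ZcKO GV and 62.3 to 82.2 CPM in control GV libraries. In pools of this kind, fewer somatic cells and less RNA per cell cannot be told apart.

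The 3 subunit genes differ in their promoters, which are shown because the genes differ so widely in level. Each stretch runs 5′ to 3′ from 250 bases before to 50 bases after the first listed start site (RefSeq, GRCm38.p6), with every match to ACGTG on either strand in capitals. ACGTG is a form of the core of the hypoxia response element, and the only form searched. CACGTG, which holds it on both strands, is the E-box read by MYC and USF factors.
Ldha promoter (chr7:46845554-46845853, plus strand): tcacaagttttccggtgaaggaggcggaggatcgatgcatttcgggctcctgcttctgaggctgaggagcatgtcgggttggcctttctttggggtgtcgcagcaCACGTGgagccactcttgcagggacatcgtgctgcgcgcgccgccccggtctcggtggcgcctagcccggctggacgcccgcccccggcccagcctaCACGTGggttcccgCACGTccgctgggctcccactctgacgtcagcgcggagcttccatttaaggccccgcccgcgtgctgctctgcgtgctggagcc
Ldhb promoter (chr6:142507908-142508207, minus strand): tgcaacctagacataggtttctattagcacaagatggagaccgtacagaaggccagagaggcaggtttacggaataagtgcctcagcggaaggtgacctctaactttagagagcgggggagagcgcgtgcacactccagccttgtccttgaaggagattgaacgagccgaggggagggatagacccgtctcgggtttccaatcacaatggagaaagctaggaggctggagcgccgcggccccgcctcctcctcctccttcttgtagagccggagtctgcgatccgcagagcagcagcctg
Ldhc promoter (chr7:46861013-46861312, plus strand): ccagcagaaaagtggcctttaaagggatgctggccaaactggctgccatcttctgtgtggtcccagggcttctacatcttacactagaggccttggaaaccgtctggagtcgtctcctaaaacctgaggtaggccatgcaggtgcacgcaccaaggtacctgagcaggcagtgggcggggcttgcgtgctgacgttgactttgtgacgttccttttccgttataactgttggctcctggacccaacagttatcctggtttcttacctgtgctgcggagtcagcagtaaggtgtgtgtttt
The Ldha promoter has CACGTG at -145 and -48 and a further match on the reverse strand at -34, counted from the start site, which makes 5 matches to ACGTG in all. The Ldhb and Ldhc promoters have no match to ACGTG in this window. GCGTG, which was not searched, can be read in each of the stretches shown, so the Ldhb and Ldhc promoters are not shown to lack the element. Among the 10 genes, 4 have at least 1 match to ACGTG (Ldha, Slc16a1, Pdhb and Pdk3), set against 19.7% of 27025 promoters of the same length. ACGTG holds a CpG, and these promoters have 30, 42, 24 and 35 CpG in that order, against a median of 7 over all promoters. The remaining genes have 9 (Ldhc) to 39 (Mpc1), so the shares are not like for like. The window of the second listed start site of Ldha has 0 matches. A match is a description of the letters and says nothing of which factor is bound.

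The ends of the transcripts are shown because the poly(A) tail decides what the assay captures. Each line gives 30 bases around the poly(A) signal (AATAAA or ATTAAA, in capitals) of the principal transcript (GENCODE M21, GRCm38), written 5′ to 3′ in the sense of the transcript.
Ldha 3′ end (chr7:46855596-46855625, plus strand): agtgtcatgccaAATAAAaccttgaacagt
Ldhb 3′ end (chr6:142490255-142490284, minus strand): agctcctgatcaAATAAAgttagcaattgc
Ldhc 3′ end (chr7:46878102-46878131, plus strand): gcctcccagtgtATTAAAggcaaccaccac
Mpc2 3′ end (chr1:165481182-165481211, plus strand): ccatttgtccatAATAAAccgtacttggtc
Pdhb 3′ end (chr14:8165999-8166028, minus strand): gttttgataaggAATAAAggggattcccac
Pdk1 3′ end (chr2:71903811-71903840, plus strand): tgtttgcaaagaATTAAAcagtgtgctgtc
Pdk3 3′ end (chrX:93764627-93764656, minus strand): tctgttccattgATTAAAgcactctaaacg
A signal of either form lay within the last 100 bases of 9 of the 10 transcripts (all but Slc16a1) and of 74.2% of 17161 transcripts. The cytoplasmic polyadenylation element, searched on the sense strand as TTTTAT or TTTTAAT, occurred in the last 100 bases of Pdk3 alone among the 10, as TTTTAT, and of 16.3% of all transcripts. No match says only that these letters are not in this window.

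Ldhb was the lactate dehydrogenase gene of these oocytes at both stages. It is on chromosome 6 (chr6:142490249-142507957, minus strand; GRCm38) and encodes the heart-type subunit. Per length (FPKM, here CPM divided by the summed exons of the gene in kilobases), Ldhb averaged 821 ± 36.5 in ZcKO MII and 1028 ± 106 in control MII oocytes, and 4389 ± 427 in ZcKO GV and 4975 ± 538 in control GV oocytes (SD, n = 3 each). It stood first of the 10 in all 4 groups, above the next gene by 36.4-fold in ZcKO MII (Pdhb), 34.9-fold in control MII (Pdhb), 198-fold in ZcKO GV (Pdk3) and 253-fold in control GV (Pdk3). Of the summed level of the 3 subunit genes per length, Ldhb made up 98.9% ± 0.975 in ZcKO MII, 99.4% ± 0.247 in control MII, 99.7% ± 0.00795 in ZcKO GV and 99.6% ± 0.144 in control GV oocytes. With the length of the principal transcript in place of the summed exons, an alternative chosen after seeing the data, Ldhb remained first in all 4 groups, by 17.2-, 16.5-, 95.9- and 118-fold in the same order of groups.

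**Figure D1:**
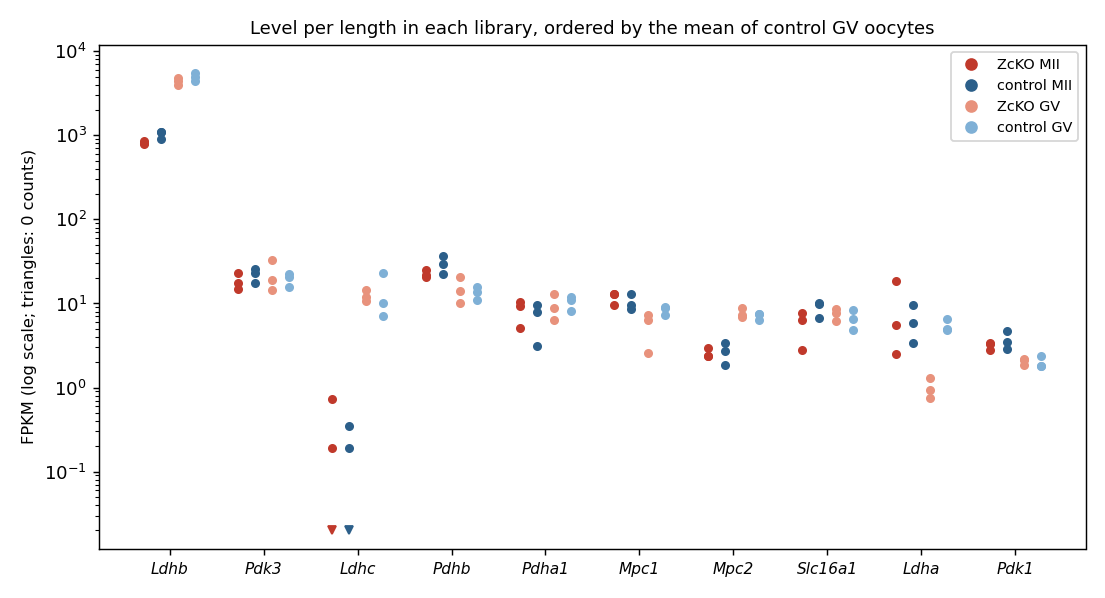
Level per length of the 10 genes in each of the 12 libraries (points), on a log axis in FPKM; triangles mark libraries with 0 counts. The 3 GV libraries of each genotype lie between 3951 and 5535 FPKM for Ldhb, while the highest value of any other gene is 36.6 FPKM (Pdhb in control MII).

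Below Ldhb the order was loose. In control GV oocytes the means ran from Pdk3 (19.7 FPKM) through Ldhc (13.5), Pdhb (13.4), Pdha1 (10.4), Mpc1 (8.45), Mpc2 (7.10) and Slc16a1 (6.60) to Ldha (5.43), and each of these overlapped its neighbour in the order over the 3 libraries; Pdk1 (1.98 FPKM) was last and apart from Ldha. ZcKO GV oocytes had the order Pdk3 (22.1), Pdhb (14.9), Ldhc (12.4), Pdha1 (9.32), Mpc2 (7.69), Slc16a1 (7.56) and Mpc1 (5.42), again with each overlapping its neighbour, and then Pdk1 (2.06) and Ldha (0.999), each apart from the gene above it. At MII, Pdhb and Pdk3 followed Ldhb by summed exons in both genotypes and overlapped each other, and Ldhc was last, at most 0.728 FPKM in any library. Places below Ldhb hang on the gene model. For Mpc2, the exons sum to 7344 bases but the principal transcript has 1025, and with that length it was second at GV in both genotypes (55.1 FPKM in ZcKO GV, 50.9 FPKM in control GV). With those lengths Pdhb also stood above Pdk3 at GV (38.1 against 26.8 FPKM in ZcKO GV and 34.3 against 23.8 FPKM in control GV), and Mpc1 (25.8 FPKM) stood above Pdk3 (22.2 FPKM) in ZcKO MII.

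Ldhb fell with maturation in both genotypes. Ldhb had 1352, 1274 and 1241 CPM in ZcKO MII libraries 1 to 3, against 6202, 7541 and 6930 CPM in ZcKO GV. In control oocytes it had 1704, 1716 and 1421 CPM at MII, against 7736, 8690 and 7005 CPM at GV. No MII library came near a GV library. Relative to other genes Ldhb fell 4.84-fold in ZcKO (log2 fold change -2.28, SE 0.18, adjusted p = 7.3e-09) and 4.39-fold in control oocytes (-2.13, SE 0.18, adjusted p = 1.4e-08), both by the quasi-likelihood test of edgeR with adjustment over all genes. Set against the ERCC counts of each library, the fall was 24.3-fold in ZcKO and 14.7-fold in control oocytes. The fall did not differ detectably between genotypes (difference of log2 changes -0.14, 95% interval -0.66 to 0.38, adjusted p = 0.945).

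Ldhc, the subunit best known from testis and sperm, was present in GV oocytes and nearly gone at MII. It lies next to Ldha on chromosome 7 (chr7:46861203-46878142, plus strand). ZcKO MII libraries had 3, 1 and 0 counts, against 55, 82 and 57 counts in ZcKO GV. Control MII libraries had 0, 1 and 2 counts, against 47, 139 and 53 counts in control GV. Summed over libraries and scaled to their totals, GV stood 42.95-fold above MII in ZcKO (4 MII counts, 95% interval 16.5 to 159) and 74.2-fold above MII in control oocytes (3 MII counts, 25.1 to 362). These intervals cover counting error only, since Smart-seq2 reads carry no molecular identifiers. Both falls passed the test (adjusted p = 3.0e-06 in ZcKO and 7.2e-07 in control). At GV the genotypes overlapped (log2 fold change -0.18, 95% interval -1.03 to 0.66, adjusted p = 0.9999), and control GV library 2, with 36.7 CPM, was above all others.

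Ldha encodes the muscle-type subunit and is a well-known target of HIF-1 and MYC in other cells. It lies at chr7:46841475-46855627 on the plus strand. The values that chose it were 3.11, 2.48 and 4.33 CPM in ZcKO GV libraries, against 16.6, 21.4 and 15.97 CPM in control GV libraries (10, 9 and 13 counts against 49, 81 and 75). The groups did not overlap, and Ldha was 5.66-fold lower in ZcKO GV oocytes (log2 fold change -2.50). This is given as a description, without an interval, because these values chose the gene. Its share of the 3 subunit genes per length was 0.0229% ± 0.00704 in ZcKO GV and 0.108% ± 0.00738 in control GV oocytes. Each ZcKO GV library had between 3372 and 6411 times as much Ldhb as Ldha per length, against 857 to 984 times in control GV libraries.

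At MII, the comparison that did not enter the choice of Ldha, it did not pass the test. Ldha had 60.5, 18.2 and 8.20 CPM in ZcKO MII libraries 1 to 3, against 19.4, 31.7 and 11.1 CPM in control MII libraries. The groups overlapped fully, and ZcKO held both the highest and the lowest value. The log2 fold change was 0.43 (SE 0.68, 95% interval -1.14 to 2.00, adjusted p = 0.846), and without ZcKO MII library 1 it was -0.66 (adjusted p = 0.737; adjusted p between 0.672 and 0.9999 over all alternatives). As a description, Ldha at MII over GV was 3.24 on the log2 scale in ZcKO and 0.33 in control oocytes, and the difference of these changes was 2.91. No interval is given, because these values use the GV libraries that chose the gene. Without ZcKO MII library 1 the ZcKO change was 2.17 and the difference 1.83, and without control MII library 2 the control change was -0.04. With ERCC totals as library sizes the changes were 1.06 in ZcKO and -1.41 in control oocytes.

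Cumulus and granulosa cell genes moved with Ldha in some libraries and not in others, and their part in its values was not tested. At MII the library with most Ldha, ZcKO MII 1, also had the highest summed level of the 16 defining markers (438 CPM, against 157 and 106 CPM in ZcKO MII 2 and 3), with Tnfaip6 at 194 CPM, Ptx3 at 43.3 CPM and Inha at 67.4 CPM. Control MII library 2, next in Ldha, had the next highest sum (232 CPM, against 159 and 190 CPM in control MII 1 and 3), with Tnfaip6 at 90.6 CPM and Inha at 51.9 CPM. ZcKO MII library 3, with least Ldha, had the lowest sum. Control MII library 3 went the other way, with less Ldha than control MII library 1 (11.1 against 19.4 CPM) and a higher sum. At GV the summed levels overlapped between genotypes, but some single genes did not. The highest GV sum was in ZcKO GV library 3 (86.6 CPM), where Ldha had 4.33 CPM. Most of that sum came from Cyp19a1 (47.0 CPM) and Nr5a2 (20.3 CPM). Of the 16 defining markers, 2 were lower in ZcKO GV without overlap (Foxl2 and Hsd17b1), 1 was higher (Lhcgr) and 13 overlapped. Of 4 markers that oocytes also express, 3 were lower without overlap (Inha, Inhbb and Fst), beside 2.30% of all genes lower and 7.26% in either direction. These shares, and the MII share below, cover tested genes only, which leave out Foxl2, Lhcgr and Fst at GV and Lhcgr at MII. At GV, Foxl2 had 0, 0 and 0 counts in ZcKO against 1, 5 and 1 in control libraries. Lhcgr had 8, 10 and 7 counts in ZcKO GV against 0, 2 and 3 in control GV libraries. Inha had 14.6, 12.1 and 15.3 CPM in ZcKO GV, against 37.2, 36.4 and 28.3 CPM in control GV (adjusted p = 0.110), and Hsd17b1 had 1.56, 1.102 and 0.9998 CPM, against 8.12, 5.28 and 6.39 CPM (adjusted p = 0.121). At MII, 2 of the 16 were higher in ZcKO without overlap, beside 15.8% of all genes in either direction: Cyp11a1, with 26.4, 5.15 and 8.20 CPM against 0.818, 0 and 1.36 CPM in control MII, and Lhcgr, at most 0.383 CPM in any MII library. Counted over all 12 libraries, 11 of the 20 markers were highest in ZcKO MII library 1 and 9 in another library, among them Cyp19a1 and Serpine2 in control MII library 1. None of the 8 of these 20 markers that could be tested at GV, nor of the 11 at MII, was called.

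**Figure D2:**
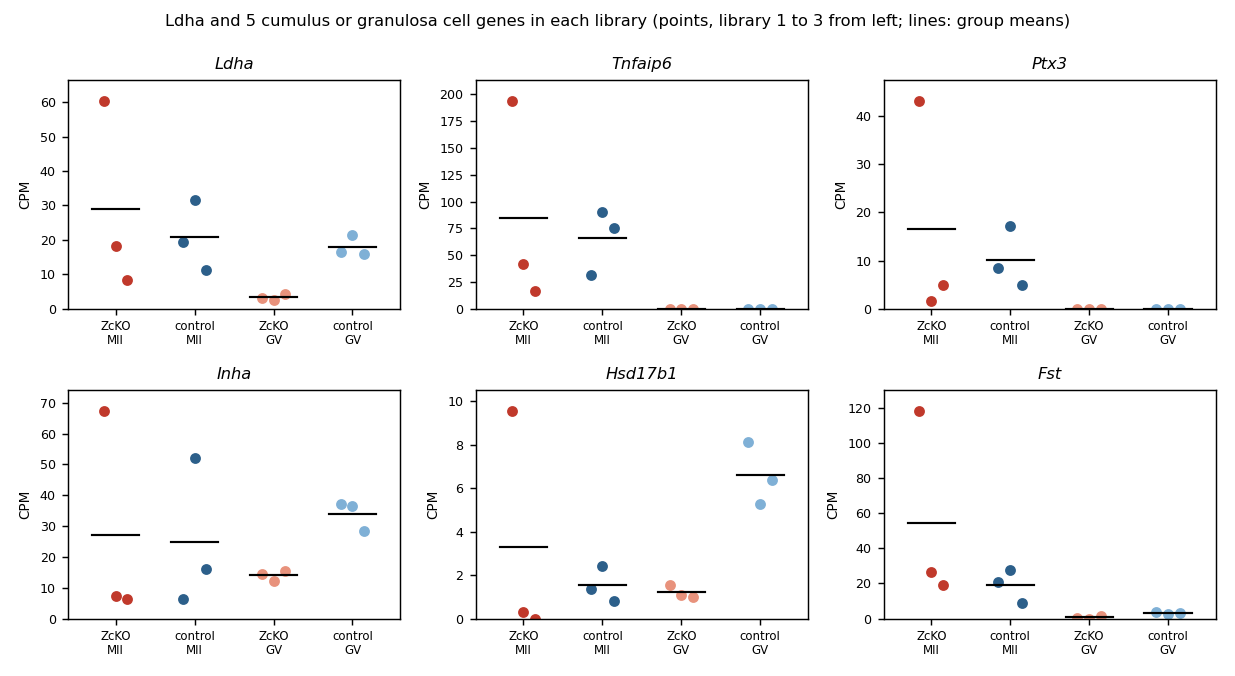
Ldha beside 5 cumulus or granulosa cell genes, picked for display after their values were seen, in CPM for each library (points, libraries 1 to 3 from left) with group means (lines). ZcKO MII library 1 is the highest point in these 6 panels, as for 11 of the 20 markers listed, and at GV Ldha, Inha, Hsd17b1 and Fst are lower in all 3 ZcKO libraries than in any control library.

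The profile of Ldha over the 12 libraries was nearest to those of Cd81 (root mean square difference of standardized log2 CPM 0.461), Scd2 (0.462) and Socs2 (0.465), of 9306 genes with a median difference of 1.35. Scd2, a fatty acid desaturase, had 58.6, 15.4 and 8.20 CPM in ZcKO MII and 7.91, 28.4 and 10.6 CPM in control MII libraries. It had 5.60, 3.58 and 1.67 CPM in ZcKO GV and 6.76, 17.1 and 12.1 CPM in control GV libraries. Scd2 was highest in ZcKO MII library 1, as was Socs2 (16.09 CPM). Cd81 was not, with 10.35 CPM there and 10.57 CPM in control MII library 2. Since these genes were sought for a profile like that of Ldha, a shared highest library is no separate observation. Ldhb had far closer neighbours: 0610012G03Rik (0.102), Zp1 (0.103), which encodes a protein of the zona pellucida, and Map3k6 (0.111), against a median of 1.37. Zp1 averaged 55.0 ± 5.72 CPM in ZcKO MII and 81.6 ± 4.23 CPM in control MII oocytes, and 1437 ± 309 CPM in ZcKO GV and 1768 ± 328 CPM in control GV oocytes.

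No member was called between ZcKO and control oocytes at either stage; Ldha was tested at MII only. At GV, 0 of the 9 tested genes passed adjusted p < 0.05 by the quasi-likelihood test of edgeR, beside 0.0825% of 10911 genes. DESeq2 also called 0, and 0 had an unadjusted p under 0.05, beside 2.20% of all genes. None of the 9 had groups without overlap, against 7.26% of all genes (2.30% lower in ZcKO, as Ldha was). Their median log2 fold change was 0.02, beside 0.01 over all genes. At MII, 0 of the 9 genes that could be tested were called by edgeR and 0 by DESeq2, beside 0% of 9677 genes; 2 of the 9 had an unadjusted p under 0.05, against 9.01% of all genes, and 1 had groups without overlap, against 15.8%. Ldhc had too few MII counts to be tested. With 3 libraries a group these tests leave wide intervals, so a miss does not show equal levels, and since no label ties libraries to animals the p-values measure the spread between these libraries.

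**Figure D3:**
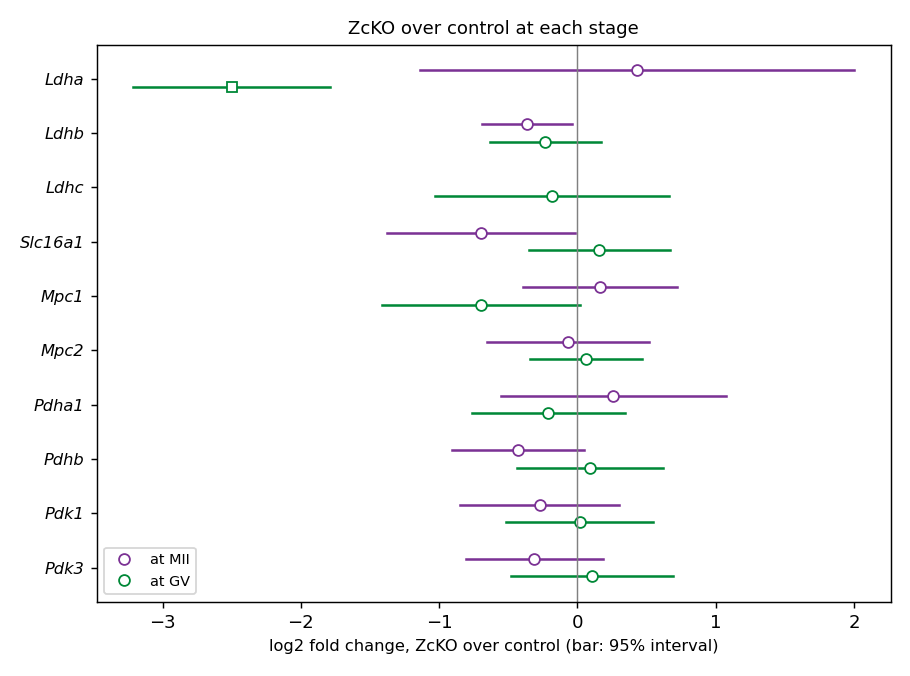
log2 fold change of ZcKO over control with its 95% interval for each gene at MII and at GV. The square marks Ldha at GV, the comparison it was chosen on, and its interval takes no account of that choice. Open symbols were not called. Apart from that square, at -2.50, every estimate lies between -0.70 and 0.43.

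The subunit and transporter genes with the smallest p-values at MII were Ldhb and Slc16a1. Ldhb was the single member whose MII groups did not overlap: its 3 ZcKO libraries (1241 to 1352 CPM) were below the 3 control libraries (1421 to 1716 CPM), a pattern of lower levels that 7.57% of all genes showed. Its log2 fold change was -0.36 (SE 0.15, 95% interval -0.69 to -0.04, adjusted p = 0.531). Ldhb-ps, a processed copy 98.0% identical over 1002 bases, took 0.166 to 0.653% as many counts as Ldhb. At GV the Ldhb difference was -0.23 (95% interval -0.63 to 0.17, adjusted p = 0.9999).

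Slc16a1 (chr3:104638668-104658462, plus strand), which encodes the proton-linked carrier MCT1, had 33.7, 28.2 and 12.47 CPM in ZcKO MII, against 29.99, 43.2 and 44.5 CPM in control MII. The ranges overlapped through control MII library 1, and library 3 of ZcKO was lowest of all 12. The log2 fold change was -0.70 (SE 0.31, 95% interval -1.38 to -0.02, adjusted p = 0.548). At GV, ZcKO libraries had 34.5, 27.6 and 38.3 CPM, against 36.9, 21.6 and 29.2 CPM in control (0.16, 95% interval -0.35 to 0.67, adjusted p = 0.9999). The difference between the 2 stages, -0.87, had an unadjusted p of 0.042 and an adjusted p of 0.875. Slc16a1 did not pass the test between MII and GV in ZcKO (-0.30, adjusted p = 0.368) or control (0.57, adjusted p = 0.0820). A fit of the 6 control libraries alone did call the control change (0.55, adjusted p = 0.0444). With a library left out the control adjusted p was 0.0566 to 0.236. Over all alternatives it was 0.0208 to 0.236, but these include the ERCC fit, whose sign is the opposite. ERCC scaling gave -2.58 in ZcKO and -1.11 in control oocytes, both called.

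Mpc1 and Mpc2, whose proteins form the mitochondrial pyruvate carrier as a pair, were called in opposite directions at MII over GV in ZcKO oocytes, relative to other genes; with ERCC totals as library sizes both values were negative, with Mpc2 called and Mpc1 not (adjusted p = 0.0682). Mpc2 (chr1:165460637-165481214, plus strand) had 17.6, 21.8 and 17.5 CPM in ZcKO MII, against 50.1, 53.7 and 65.7 CPM in ZcKO GV. In controls it had 13.6, 25.1 and 20.1 CPM at MII, against 54.8, 47.0 and 54.7 CPM at GV. It fell 2.68-fold in ZcKO (adjusted p = 2.2e-05) and 2.44-fold in control oocytes (adjusted p = 5.5e-05), with no overlap of stages in either genotype.

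Mpc1 (chr17:8282904-8297661, plus strand) had 19.9, 27.2 and 27.1 CPM in ZcKO MII, against 5.29, 13.2 and 15.3 CPM in ZcKO GV. In controls it had 20.2, 18.1 and 26.6 CPM at MII, against 18.9, 15.3 and 18.5 CPM at GV. It rose 2.45-fold in ZcKO without overlap (log2 1.29, SE 0.31, adjusted p = 0.00155), whereas the control change of 0.44 did not pass (adjusted p = 0.205), and the difference between genotypes, 0.85, did not pass either (unadjusted p = 0.065, adjusted p = 0.875). With ERCC totals as library sizes the sign turned to -0.91 in ZcKO (not called) and -1.29 in control oocytes (adjusted p = 0.0119), while Mpc2 stayed lower in both genotypes, at -3.73 and -2.99. The Mpc1 values are uncertain, because Mpc1-ps is 99.7% identical over 330 bases and took 59.8 to 122% as many counts as Mpc1. Mpc1-ps averaged 25.1 ± 7.23 CPM in ZcKO MII, 21.6 ± 1.65 CPM in control MII, 9.24 ± 4.82 CPM in ZcKO GV and 10.9 ± 1.05 CPM in control GV oocytes. At GV the Mpc1 log2 fold change between genotypes was -0.70 (95% interval -1.42 to 0.02, adjusted p = 0.9999), with ZcKO GV library 1 the lowest of all.

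**Figure D4:**
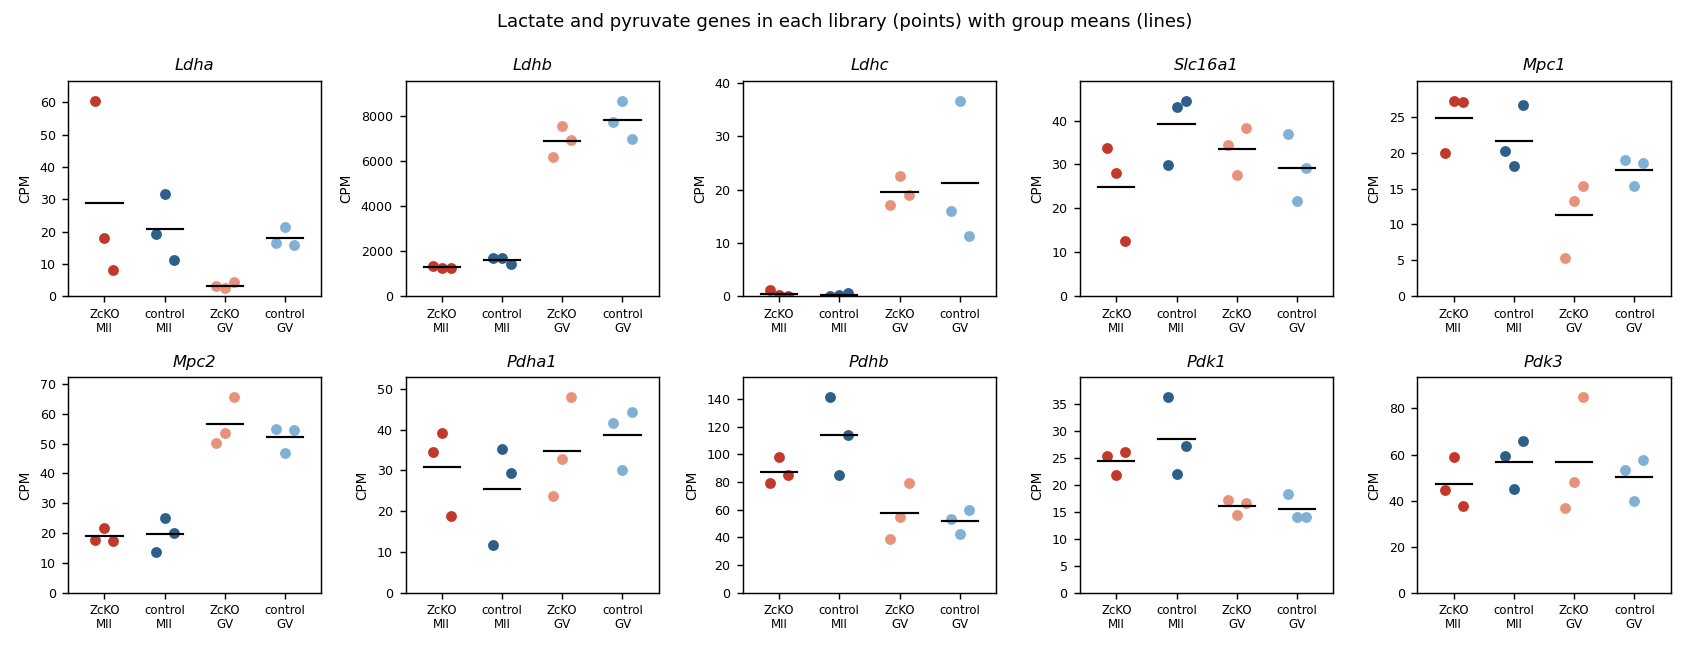
The 10 genes in CPM in each library (points, libraries 1 to 3 from left) with group means (lines), on linear axes that start at 0. Ldhb, Ldhc and Mpc2 lie lower in every MII library than in any GV library, while Pdk1 lies higher in CPM and lower per ERCC count.

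Of the pyruvate dehydrogenase subunits, Pdhb was called between stages and Pdha1 was not. Pdhb (chr14:8165996-8173025, minus strand), the beta subunit of the E1 enzyme, had 78.9, 97.8 and 84.8 CPM in ZcKO MII, against 38.9, 54.6 and 79.6 CPM in ZcKO GV. In controls it had 141, 85.4 and 114 CPM at MII, against 53.1, 42.5 and 60.0 CPM at GV. Relative to other genes, though not per ERCC count, it rose in both genotypes, by 0.75 on the log2 scale in ZcKO (SE 0.25, adjusted p = 0.0138), where ZcKO GV library 3 overlapped the MII range, and by 1.29 in control oocytes (SE 0.25, adjusted p = 2.1e-04), without overlap. The ZcKO call was lost without ZcKO GV library 1 (adjusted p = 0.0700) and without ZcKO MII library 2 (adjusted p = 0.0527). Its adjusted p ranged from 0.00220 to 0.0700 with a library left out. Over all alternatives it ranged from 6.6e-04 to 0.0700, but these include the ERCC fit, whose sign is the opposite. Under ERCC scaling both signs turned, to -1.49 in ZcKO (called lower) and -0.51 in control oocytes (not called). Between genotypes at MII the log2 fold change was -0.43 (95% interval -0.91 to 0.05, adjusted p = 0.561).

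Pdha1 (chrX:160122209-160138413, minus strand), the X-linked alpha subunit that carries the sites the kinases act on, was not called in any comparison with TMM scaling. Its values ran from 18.9 to 39.0 CPM in ZcKO MII, 11.7 to 35.3 CPM in control MII, 23.6 to 48.0 CPM in ZcKO GV and 30.1 to 44.3 CPM in control GV, so all 4 groups overlapped. At MII over GV it changed by -0.03 in ZcKO (95% interval -0.70 to 0.65) and by -0.49 in control oocytes (-1.16 to 0.19), and neither passed. ERCC scaling gave -2.21 and -2.16, both called. An exon of Map3k15 on the other strand shares 425 bases with it, and Map3k15 took 3.33 to 18.6% as many counts.

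Of the kinases, Pdk1 rose relative to other genes, though not per ERCC count, and Pdk3 did not pass the test. Pdk1 (chr2:71873224-71903858, plus strand), a hypoxia-inducible kinase, had 25.3, 21.8 and 26.0 CPM in ZcKO MII, against 17.1, 14.3 and 16.7 CPM in ZcKO GV. In controls it had 36.3, 22.0 and 27.2 CPM at MII, against 18.3, 13.98 and 14.1 CPM at GV. The stages did not overlap, with a log2 change of 0.74 in ZcKO (SE 0.27, adjusted p = 0.0208) and 1.05 in control oocytes (SE 0.26, adjusted p = 0.00186). The ZcKO call was lost without ZcKO GV library 2 (adjusted p = 0.0806), without ZcKO MII library 3 (0.0665) and with no filter on low counts (0.0814). The ZcKO adjusted p was 0.0252 to 0.0806 with a library left out. Over all alternatives it was 0.00107 to 0.0814, but these include the ERCC fit, whose sign is the opposite. ERCC scaling gave -1.63 in ZcKO (called lower) and -0.70 in control oocytes (not called).

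Pdk3 (chrX:93764607-93832201, minus strand), the other kinase of the set, ran from 37.8 to 58.7 CPM in ZcKO MII, 45.0 to 65.7 CPM in control MII, 36.7 to 85.0 CPM in ZcKO GV and 39.8 to 57.7 CPM in control GV. Its groups overlapped in every comparison. The change at MII over GV was -0.11 in ZcKO (95% interval -0.67 to 0.45) and 0.32 in control oocytes (-0.23 to 0.87). ERCC scaling gave -2.31 and -1.44, both called.

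Counted together, 3 of 9 tested genes were called higher at MII than GV in ZcKO oocytes (Mpc1, Pdhb, Pdk1) and 3 lower (Ldhb, Ldhc, Mpc2), beside 29.5% of 11607 genes called higher and 34.0% lower, 63.5% in all. In control oocytes 2 were called higher (Pdhb, Pdk1) and 3 lower (Ldhb, Ldhc, Mpc2), beside 30.1% of all genes called higher and 33.8% lower, 63.9% in all, so the members' shares are near the background. Stages did not overlap for 2 higher and 3 lower members in each genotype, beside 65.3% of all genes in ZcKO (27.6% higher, 37.7% lower) and 67.3% in control oocytes (28.9% higher, 38.5% lower). For the difference of these changes between genotypes, not tested for Ldha because it uses the GV libraries that chose it, 0 of the other 9 members were called by edgeR (beside 0.00862% of all genes; 0 by DESeq2; 1 with an unadjusted p under 0.05, beside 5.24% of all genes). Scaling to ERCC totals moved the median change of all genes to -2.37 in ZcKO and -1.72 in control oocytes, and with it the share of calls that were higher, 0.903% in ZcKO and 0.792% in control against 46.4% and 47% with TMM factors. In that fit 10302 of the 11607 genes were called in ZcKO and 8206 in control oocytes, so most genes moved down. The members are to be read against that shift. The share of all genes without overlap per ERCC count was not computed. Per ERCC count, 9 of the 10 genes in ZcKO and 8 of the 10 in control oocytes were lower at MII with no overlap, and none was higher. The exceptions were Ldha in both genotypes and Pdhb in control oocytes.

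**Figure D5:**
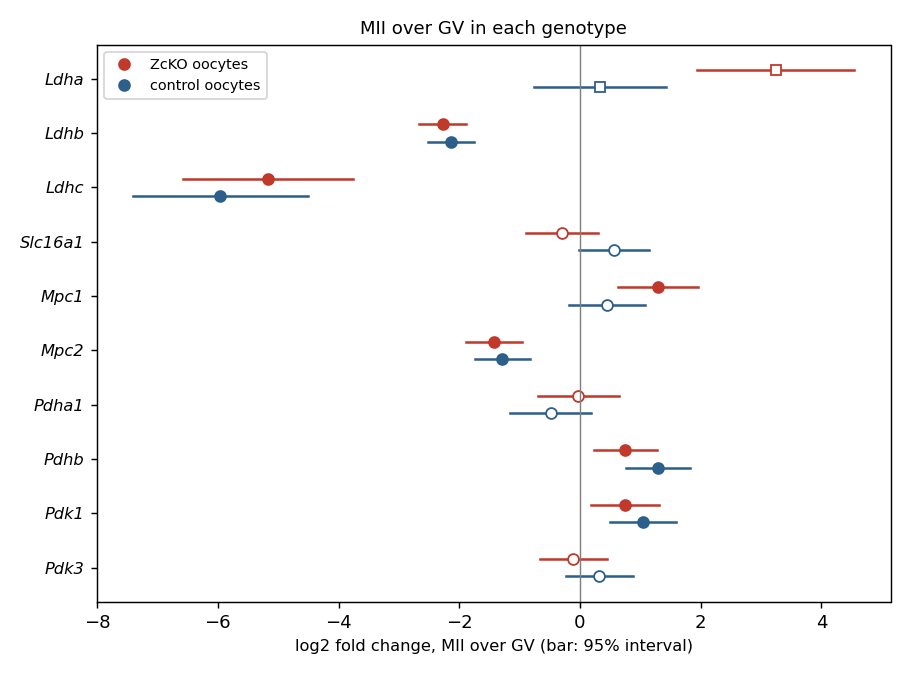
log2 fold change of MII over GV, relative to other genes (TMM scaling), with its 95% interval in ZcKO and control oocytes. Filled symbols were called and open circles were not. Squares mark Ldha, given as a description, and its intervals take no account of how it was chosen. Ldhb, Ldhc and Mpc2 lie left of 0 in both genotypes, whereas Pdhb and Pdk1 lie right of 0. Under ERCC scaling, which moved most genes down, all 5 of these lie left of 0, so that scaling is no separate check of the falls.

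The wider pathway was read through 6 lists of other genes. In the genotype comparisons 0 of 61 tested list genes were called at MII and 0 of 63 at GV. Between stages, 13 of 65 were called higher and 27 lower in ZcKO oocytes, and 13 higher and 28 lower in control oocytes, relative to other genes. That is 20% higher and 41.5% lower in ZcKO (61.5% in all), beside 29.5% and 34.0% (63.5% in all) over all genes, and 20% higher and 43.1% lower in control (63.1% in all), beside 30.1% and 33.8% (63.9% in all), so the share called was near the background, against which the counts of each list are to be read. By the naming rule 21 genes are described for each genotype; for a gene named in 1 genotype alone, the value in the other was added after it was seen. Under ERCC scaling the sign turned negative for 6 of the 7 named as higher in ZcKO, 4 of which passed as lower, and for 5 of the 6 in control oocytes, 0 of which passed. All 14 named as lower in ZcKO and all 15 in control oocytes passed as lower under that scaling too. That scaling moved the median change of all genes to -2.37 in ZcKO and -1.72 in control oocytes. A gene already lower is pushed further down by it, so these passes are no separate check.

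Among relatives of lactate dehydrogenase and monocarboxylate carriers, 2 of 5 tested genes rose and 2 fell in each genotype. Ldhd, the mitochondrial D-lactate dehydrogenase, had 4.11 ± 0.497 CPM in ZcKO MII and 23.5 ± 4.004 CPM in ZcKO GV oocytes (log2 -2.36, adjusted p = 2.1e-06), and 4.67 ± 0.660 CPM in control MII and 22.6 ± 1.94 CPM in control GV oocytes. Bsg, the basigin chaperone that brings MCT1 to the membrane, fell by 1.25 in ZcKO and by 1.06 in control oocytes on the log2 scale. Emb, the related chaperone embigin, rose by 1.58 and 1.28, and the sodium-coupled lactate carrier gene Slc5a12 by 1.78 and 1.83, in ZcKO and control oocytes in that order; under ERCC scaling Emb turned to -0.78 and -0.47, and Slc5a12 to -0.36 in ZcKO and 0.20 in control oocytes.

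In the rest of the pyruvate dehydrogenase system, 2 of 9 tested genes rose and 4 fell in ZcKO, and 1 rose and 4 fell in control oocytes. The lipoyl transfer genes Lipt1 and Lipt2, which put the lipoyl group on the complex, both fell: Lipt1 had 12.02 ± 2.70 CPM in ZcKO MII and 91.4 ± 31.4 CPM in ZcKO GV (log2 -2.78), and 10.8 ± 2.51 CPM in control MII and 97.0 ± 18.5 CPM in control GV (-3.03). Dld, the shared E3 subunit, fell by 0.59 in ZcKO and by 0.84 in control oocytes. Pdp1, a phosphatase that reactivates the complex, rose by 0.60 in ZcKO (adjusted p = 0.0447) and by 1.14 in control oocytes, and turned to -1.72 and -0.67 under ERCC scaling. Of the list of other enzymes of pyruvate metabolism, taken broadly, 2 of 6 rose and 1 fell in ZcKO, and 3 rose and 2 fell in control oocytes. Acly, ATP citrate lyase, rose by 0.90 in ZcKO and 0.80 in control oocytes (-1.39 and -0.94 under ERCC scaling), and Me2, a mitochondrial malic enzyme, fell by 0.57 in control oocytes (adjusted p = 0.0211) and had a log2 change of -0.23 in ZcKO (adjusted p = 0.325).

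Glycolysis and glucose uptake had 2 of 15 genes called higher and 6 lower in ZcKO, and 1 higher and 6 lower in control oocytes. Pkm, pyruvate kinase, had 39.1 ± 19.4 CPM in ZcKO MII and 290 ± 41.7 CPM in ZcKO GV oocytes (log2 -2.76, adjusted p = 9.3e-07), and 34.9 ± 20.2 CPM in control MII and 287 ± 25.8 CPM in control GV oocytes (-2.93, adjusted p = 4.6e-07). Gpi1, glucose phosphate isomerase, fell by 2.72 in ZcKO and by 2.65 in control oocytes. Pfkm, a phosphofructokinase subunit, fell by 4.41 in ZcKO and fell by 2.51 in control oocytes. It was near the floor at MII, with 0.502 ± 0.588 CPM in ZcKO and 1.23 ± 0.243 CPM in control, so the size of these falls is imprecise. Their difference, -1.91 (SE 0.82), was not called (adjusted p = 0.875). Aldoa, an aldolase, fell by 1.60 in ZcKO and fell by 1.81 in control oocytes, and the glucose transporter gene Slc2a1 fell by 2.15 in ZcKO and fell by 1.77 in control oocytes. Hk2, a hexokinase, had 12.9 ± 8.65 CPM in ZcKO MII and 2.17 ± 1.06 CPM in ZcKO GV oocytes (log2 2.69, and 0.50 under ERCC scaling), and 6.81 ± 1.64 CPM in control MII and 2.13 ± 0.226 CPM in control GV oocytes (log2 1.80, adjusted p = 0.00352, and 0.13 under ERCC scaling).

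The tricarboxylic acid cycle and malate-aspartate shuttle had 3 of 24 genes called higher and 12 lower in ZcKO, and 4 higher and 12 lower in control oocytes. Mdh2, mitochondrial malate dehydrogenase, had 19.0 ± 11.3 CPM in ZcKO MII and 183 ± 44.7 CPM in ZcKO GV oocytes (log2 -3.14), and 14.9 ± 8.74 CPM in control MII and 180 ± 14.1 CPM in control GV oocytes (-3.48). Dlst, of the oxoglutarate dehydrogenase complex, fell by 3.17 in both genotypes, Sdhb changed by -2.59 in ZcKO and -3.73 in control oocytes, and Idh3g changed by -2.59 in ZcKO and -3.17 in control oocytes. The median log2 change of the list was -0.66 in ZcKO and -0.61 in control oocytes, beside -0.04 and 0.01 over all genes tested.

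Of the HIF and MYC pathway genes, 2 of 6 rose and 2 fell in each genotype. Hif1a, the oxygen-regulated subunit, had 498 ± 76.1 CPM in ZcKO MII and 245 ± 36.6 CPM in ZcKO GV oocytes (log2 1.17), and 438 ± 55.1 CPM in control MII and 234 ± 28.3 CPM in control GV oocytes (1.05). Its partner gene Arnt rose by 1.21 in ZcKO and by 0.88 in control oocytes; under ERCC scaling Hif1a turned to -1.25 and -0.75 and Arnt to -1.06 and -0.83. Hif1an, which hydroxylates HIF, fell by 0.97 in ZcKO and by 1.06 in control oocytes, and Egln2, a HIF prolyl hydroxylase, fell by 3.71 in ZcKO and fell by 4.43 in control oocytes. Between genotypes at GV, the comparison in which Ldha was low, Hif1a differed by 0.02 (SE 0.20, adjusted p = 0.9999). Arnt differed by -0.34, Hif1an by 0.15 and Egln2 by 0.43, and none of them was called. These are transcript levels, and a part of HIF-1 in the low Ldha was not tested.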

How the data were processed

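The authors deposited whole-number read counts per gene symbol, with 1 column per library and no normalization. The submitters' processing notes name fastp, HISAT2, featureCounts and mm10. Versions, annotation, strand setting and treatment of multi-mapping reads: not given in the sources used here, so reads shared with a near-identical copy or an overlapping gene are uncertain. The table has 55383 rows, of which 92 are ERCC spike-ins and were left out of library sizes. Another 6 columns match no label and were not used. The count test was edgeR 4.0.16 (R 4.3.3; TMM, filterByExpr, robust glmQLFit, glmQLFTest, Benjamini-Hochberg over all genes tested, threshold 0.05), checked on simulated counts. Genotypes were compared within the 6 libraries of a stage, and stages and the interaction came from 1 fit of 12. A standard error is the log2 fold change over the square root of its F statistic. DESeq2 1.42.0, RLE and ERCC scaling, other filters, a replicate block, other sample sets and each library left out were alternatives.

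The 10 genes and the lists were chosen with earlier results of these data known. From the lists, genes were named if called, without overlap, and averaging 10 CPM or more in 1 of the groups, at most 4 per list and comparison by size of change; the 3 nearest profiles were sought among genes of at least 5 CPM on average. Coordinates and lengths are from GENCODE M21 (GRCm38), which held 53292 of the 55291 symbols; copies are transcripts of at least 90% identity over 300 bases (blastn 2.17.0). Library pairs of a group differed beyond sampling noise (smallest chi-square per degree of freedom 4.87). Intervals cover 95%. With 3 libraries in each group, the smallest p of an exact permutation test is 0.1.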

Additional observations from a re-analysis of the deposited data

How the results depend on the processing

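Members called stayed at 0 in both genotype comparisons and the interaction under every alternative run. At MII over GV they numbered 6 in ZcKO, with 8 by ERCC totals, 5 with no filter and 5 to 6 with a library left out. In control they numbered 5, with 7 by ERCC totals, 6 in a fit of the control libraries alone and 5 with any library left out. Over all genes, the main fits called 7372 of 11607 in ZcKO and 7418 in control, and ERCC totals 10302 and 8206 of 11607. No filter gave 7660 of 26685 in ZcKO, and the fit of the control libraries alone 7208 of 10843. The counts of members are to be read against these. By ERCC totals all of the members' calls were of lower levels. In ZcKO they took in Pdhb and Pdk1, which were called higher with TMM factors, so the larger counts do not mean that the calls held. The count of all genes called moved more. ZcKO against control at GV gave 9, and 28 with no filter, 3 with all 12 libraries in 1 fit and 2 to 10 with a library left out. At MII it gave 0, and 1 with DESeq2, 96 with no filter and 0 with any library left out. The interaction gave 1, and 3 with DESeq2, 3 with ERCC totals, 18 with no filter and 0 to 3 with a library left out. Stage calls were 6671 to 7248 in ZcKO and 6789 to 7122 in control with a library left out. The cause of these moves was not tested.

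With ERCC totals as library sizes these log2 fold changes reversed. ZcKO over control at GV became 0.22 for Ldhb, 0.26 for Ldhc and 0.14 for Pdha1, and at MII -0.019 for Mpc1. MII over GV in ZcKO became -0.91 for Mpc1, -1.49 for Pdhb and -1.63 for Pdk1, and in control -1.41 for Ldha, -1.11 for Slc16a1, -1.29 for Mpc1, -0.51 for Pdhb, -0.70 for Pdk1 and -1.44 for Pdk3. The interaction became -0.051 for Pdha1. Over all genes the median then was 0.46 at GV, -0.15 at MII and -0.61 in the interaction; at GV 54.5% of its 11 calls were higher, against 22.2% of 9.

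With a library left out, values that crossed 0 had these ranges. At GV, ZcKO over control ran from -0.51 to 0.53 for Ldhc, -0.019 to 0.11 for Mpc2, -0.17 to 0.28 for Pdhb, -0.072 to 0.11 for Pdk1 and -0.26 to 0.31 for Pdk3. At MII it ran from -0.66 to 0.86 for Ldha, -0.23 to 0.11 for Mpc2, -0.053 to 0.53 for Pdha1 and -0.46 to 0.0037 for Pdk1. MII over GV ran from -0.23 to 0.22 for Pdha1 and -0.32 to 0.25 for Pdk3 in ZcKO, and from -0.041 to 0.64 for Ldha in control. The interaction ran from -0.52 to 1.60 for Ldhc and -0.30 to 0.029 for Mpc2.

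Without length, Ldhb stood above the next gene by 14.8-fold in ZcKO MII, 14.2-fold in control MII, 119-fold in ZcKO GV and 150-fold (149.7) in control GV, and with the principal transcript by 17.2, 16.5, 95.9 and 118. The share of Ldha by counts was 2.11%, 1.24%, 0.0484% and 0.228% in the same groups, and that of Ldhb 97.9%, 98.7% and 99.7% in the first 3. With the principal transcript Ldha had 0.918% in control MII, 0.0357% in ZcKO GV and 0.169% in control GV, and Ldhb 99.1% in control MII. By CPM in place of ERCC ratios, Ldhb at MII over GV was -2.42 in ZcKO and -2.28 in control, against -4.61 and -3.88.

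The labels number replicates alike in each group, and same-numbered ZcKO and control libraries did not deviate together (r from -0.278 to 0.272 at GV and -0.194 to -0.0403 at MII), so the numbers were not taken as a pairing. With the replicate block, members called stayed at 0 in both genotype comparisons and the interaction, and at 6 in ZcKO and 5 in control between stages; genes called were 11, 0, 7128, 7191 and 1 in that order of GV, MII, ZcKO stages, control stages and interaction.

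Depth limits Ldhc at MII (4 counts in ZcKO, 3 in control) and Ldha in ZcKO GV (32 counts in all). With 3 libraries a group, the intervals printed beside a result give the precision. None is printed for Ldha where GV libraries enter.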
